A study of Homo sapiens with 12 samples.

Results

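Nilotinib was compared directly with imatinib in K562 cells on 8 of the 12 arrays of the study, and the 4 arrays of cells given the solvent alone were set beside them. The 4 arrays whose titles name AMN107, the development name of nilotinib, came from cells exposed to 0.05 µM of it for 24 h. The 4 arrays whose titles name STI, the development name of imatinib (STI571), came from cells exposed to 0.5 µM for the same 24 h. The remaining 4 arrays came from cells given DMSO for 24 h. The labels call the dose of each drug its IC50, without saying of which measurement. Because the doses differ, a difference between the drugs and a difference between their doses cannot be told apart. K562 is an established line grown from a patient with chronic myeloid leukaemia in blast crisis. It carries the Philadelphia chromosome and can mature along the red cell line, and all 12 arrays share this single line. Total RNA was measured on Affymetrix U133A 2.0 arrays. The labels number the arrays but do not say that they came from separate cultures, so the p-values cover only the variation among these samples, and that variation may be technical.

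Both drugs occupy the ATP site of the ABL1 kinase in its inactive form and so silence BCR-ABL1, the fusion kinase on which K562 cells depend. Nilotinib was built on the imatinib scaffold: the central amide is reversed, and a phenyl ring bearing trifluoromethyl and methylimidazole groups takes the place of the N-methylpiperazine end. Downstream of BCR-ABL1, the RAS-ERK, STAT5 and PI3K-AKT pathways sustain MYC, the D-type cyclins and, through the release of E2F factors from RB, the genes that copy DNA. Loss of the kinase signal in K562 cells is known for arrest of growth and for the appearance of haemoglobin and red cell membrane proteins. The comparison asks where these programs stood at different levels under the 2 drugs as dosed here.

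Signals were as the authors deposited them, on a linear scale. A difference is the mean over 4 nilotinib arrays minus the mean over 4 imatinib arrays of log2(signal + 16), so a negative value means lower with nilotinib, and the pseudocount of 16 understates differences between dim signals. Errors of differences are standard errors, and adjusted p-values are limma's moderated test with Benjamini-Hochberg adjustment over all 22215 probe sets that are not Affymetrix controls. A difference was called at an adjusted p under 0.05. It was held under both scales where it also passed with the same sign after quantile normalization, which gives all arrays a single distribution of signals. Each gene is represented by the brightest probe set that names it alone, which gave 11963 genes. Counts of list members are of calls held under both scales unless stated otherwise. Over all genes the shares of such calls were 1.58% higher and 3.01% lower. Among genes at or above the 40th percentile of mean signal they were 2.22% and 4.43%. Where a gene has several probe sets, their mean is given if it was not called or was smaller by over 1.5 times. Array values are listed in replicate order, replicates 1 to 4 for nilotinib and 5 to 8 for imatinib. A lack of overlap between the drugs is a description. Among genes at or above the 40th percentile, all nilotinib arrays lay below all imatinib arrays for 8.54% and above them for 9.5%.

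The 2 sets of drug arrays differed in how their dim and bright signals were spread. The median signal was 178.5 ± 12.1 (SD, n = 4) with nilotinib, 142.3 ± 8.72 with imatinib and 119.2 ± 2.15 with DMSO. Nilotinib and imatinib arrays did not overlap in it (two-sided exact permutation test, p = 0.0286, the smallest that 4 against 4 allows, and 0.114 after Benjamini-Hochberg adjustment over 12 array measures). Pairs of nilotinib arrays correlated at 0.930 to 0.949 across probe sets, pairs of imatinib arrays at 0.957 to 0.963, and pairs across the drugs at 0.926 to 0.956. The actin 3' to 5' signal ratio, a measure of RNA integrity and labelling, was high on nilotinib replicates 1 and 2 and imatinib replicates 5 and 6 (3.72 to 5.49) and low on the other 4 drug arrays (1.82 to 2.71). Each drug thus has 2 arrays in each class, and differences within the classes are given for the main genes and, for the other named genes that were called, wherever a class differed from the whole by over 1.5 times.

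**Figure D1:**
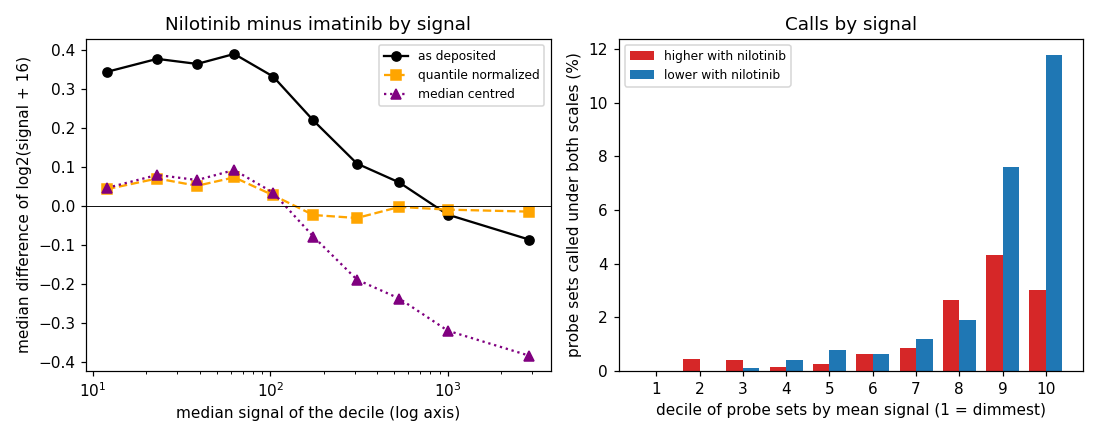
The left panel plots the median nilotinib minus imatinib difference of log2(signal + 16) in deciles of mean signal (log x axis), as deposited, after quantile normalization and after median centring of each array. The right panel gives the percentage of each decile called higher (red) or lower (blue) under both scales. As deposited, the dimmest decile lay at 0.34 and the brightest at -0.09, and the lower calls were 11.8% of the brightest decile.

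The difference ran with signal. As deposited, the medians of the 4 dimmest deciles of the probe sets lay at 0.34 to 0.39 and that of the brightest decile at -0.09. After quantile normalization the medians of all deciles lay between -0.03 and 0.07. Over all probe sets the median was 0.16 as deposited, 0.01 after quantile normalization, 0.01 after cyclic loess and -0.14 after median centring, so changes are best read against these shifts. The part of this shift in any single gene's difference was not tested.

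At an adjusted p under 0.05, 608 of the 22215 probe sets were higher with nilotinib (2.74%) and 742 were lower (3.34%). Under both scales 283 were higher (1.27%) and 542 lower (2.44%). Counted by gene, 189 of 11963 were higher under both scales (1.58%) and 360 lower (3.01%). Median centring split the calls into 149 higher and 3402 lower probe sets, 56 and 685 under both scales, and cyclic loess into 376 and 535. Leaving out imatinib replicate 6 gave 216 higher and 456 lower, 124 and 313 under both scales. The higher count was also 379 without nilotinib replicate 2, 326 without nilotinib replicate 4, 395 without imatinib replicate 5 and 326 without imatinib replicate 8, and the higher count under both scales was 177 without nilotinib replicate 4 and 180 without imatinib replicate 8. The differences were mostly small. Sizes were counted among the 8021 genes at or above the 40th percentile of mean signal. Of these, 68 were higher and 142 lower under both scales by at least 0.5 on the log2 scale, and 12 and 14 by at least 1. A single gene among them, SAC3D1, exceeded 2. For comparison with the solvent, 2752 of the 8021 genes at or above the 40th percentile of mean signal differed between imatinib and DMSO (34.3%) and 4383 between nilotinib and DMSO (54.6%). These last 2 counts share the DMSO arrays, and each shares its drug arrays with the direct comparison. They are of the deposited scale alone and were not checked after quantile normalization. The median signal differed between the groups (119.2 with DMSO, 142.3 with imatinib, 178.5 with nilotinib), and its part in these counts was not tested. In simulated data of this design, 67, 67 and 66 probe sets at or above the 40th percentile were changed by 0.5, 1 and 2. Of these, 34.3%, 56.7% and 92.4% were recovered. The noise was independent between probe sets, no shift between arrays was simulated, and fewer probe sets changed than were called here. Recovery in the real data may therefore differ. A gene without a call is not shown to be alike under the 2 drugs.

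Part of the genes that copy DNA were lower with nilotinib, and none of the measured ones was called higher. Of 18 licensing genes, which load the MCM helicase on origins, 9 were lower under both scales, and their median difference was -0.37. Of 34 replication fork genes, 12 were lower, with a median of -0.33. Of 9 genes of deoxynucleotide supply, 5 were lower, with a median of -0.45. The shares over all genes were 3.01% lower and 1.58% higher, and the median over all genes was 0.13 as deposited and 0.02 after quantile normalization. Of genes at or above the 40th percentile of mean signal, 4.43% were lower under both scales. In the brightest decile of probe sets that share was 11.8%. All 18 licensing genes, 33 fork genes and 8 deoxynucleotide genes lay at or above that percentile. The part of signal level in these counts was not tested. In these bulk samples, fewer cells in S phase and less transcript per cell cannot be told apart. The medians of these 3 lists stayed negative after quantile normalization, median centring and cyclic loess.

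The promoters of 3 of the lower genes are shown because E2F, the factor released by cyclin-dependent kinases, is known for switching on this gene group. Each is a 300-base window from 250 bases before to 50 after the gene's start, from RefSeq on GRCh38.p14, printed 5′ to 3′ on the gene's strand, with capitals marking matches to the E2F letters searched (TTTCCCGC, TTTCGCGC, TTTGCCGC or TTTGGCGC on either strand). MCM6, a subunit of the replicative helicase, lies at chr2:135876394-135876693, minus strand. GINS1, which helps to activate that helicase, lies at chr20:25407423-25407722, plus strand. CDC6, which loads the helicase on origins, lies at chr17:40287629-40287928, plus strand.
MCM6: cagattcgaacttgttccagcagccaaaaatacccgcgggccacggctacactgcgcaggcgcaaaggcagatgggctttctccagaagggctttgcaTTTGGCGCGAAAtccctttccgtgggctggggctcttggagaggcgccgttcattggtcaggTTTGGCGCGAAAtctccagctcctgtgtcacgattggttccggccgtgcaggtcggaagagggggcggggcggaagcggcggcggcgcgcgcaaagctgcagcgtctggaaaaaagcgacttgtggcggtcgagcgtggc
GINS1: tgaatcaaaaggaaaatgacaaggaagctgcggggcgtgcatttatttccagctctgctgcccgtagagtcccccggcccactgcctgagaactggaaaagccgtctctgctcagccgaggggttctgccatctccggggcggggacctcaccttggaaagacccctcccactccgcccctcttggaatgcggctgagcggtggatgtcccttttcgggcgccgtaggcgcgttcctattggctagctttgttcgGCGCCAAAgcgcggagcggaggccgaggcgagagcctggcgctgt
CDC6: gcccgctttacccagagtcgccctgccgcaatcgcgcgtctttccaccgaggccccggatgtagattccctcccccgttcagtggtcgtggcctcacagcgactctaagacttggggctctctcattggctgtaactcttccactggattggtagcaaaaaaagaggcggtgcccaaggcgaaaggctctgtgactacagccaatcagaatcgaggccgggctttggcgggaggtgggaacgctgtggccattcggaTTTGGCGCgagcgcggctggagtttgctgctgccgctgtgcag
MCM6 held 4 matches, which overlap in 2 pairs, and GINS1 and CDC6 held 1 each. Any such match was found in 6.08% of the 9563 genes of the array with a promoter in the table, counting all windows of a gene. Among licensing and fork genes it was found in 10 of the 18 that were lower under both scales (55.6%) and in 11 of the 25 that were not called (44%). A match is a description of letters and not a binding site.

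CDC45 joins MCM and GINS in the active helicase. Its signals were 1057, 1334, 1277 and 1190 on the nilotinib arrays and 1953, 2149, 1911 and 2279 on the imatinib arrays. Every nilotinib array lay below every imatinib array, while the imatinib arrays lay close to DMSO (2057 ± 59.7, SD, n = 4). CDC45 was lower with nilotinib by a difference of -0.77 ± 0.08 (SE, adjusted p = 6.44e-05), with -0.78 among the arrays of high actin ratio and -0.75 among those of low ratio.

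GINS1 had the largest difference of the fork genes, -0.87 ± 0.12 (SE, adjusted p = 0.000332). Its signals were 643, 686, 754 and 529.6 on the nilotinib arrays and 1175, 1302, 1285 and 1049 on the imatinib arrays, with no overlap between the drugs. FEN1, the nuclease that trims Okazaki fragments, was lower by -0.75 ± 0.09 (adjusted p = 0.000192), and GINS2 by -0.69 ± 0.08 (adjusted p = 0.000177). MCM6 signals were 3895, 3129, 3305 and 3363 on the nilotinib arrays and 4690, 5368, 4739 and 5672 on the imatinib arrays, again without overlap, and the difference was -0.58 ± 0.08 (adjusted p = 0.000368). CDC6 (-0.58 ± 0.11), ORC5, a subunit of the origin recognition complex (-0.54 ± 0.09), and MCM5 (-0.52 ± 0.09) were lower too. Averaging the probe sets gave -0.33, adjusted p = 0.0403 for CDC6, -0.32, adjusted p = 0.249 for ORC5 and -0.26, adjusted p = 0.108 for MCM5, so that only CDC6 kept its call. The DMSO means of GINS1 (1040 ± 130.3) and MCM6 (4682 ± 116) lay with those of imatinib.

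RRM2 and RRM1, the subunits of ribonucleotide reductase, make deoxynucleotides from ribonucleotides. RRM2 signals were 2644, 2855, 3009 and 2632 on the nilotinib arrays and 4199, 4801, 4178 and 4547 on the imatinib arrays. The drugs did not overlap, but both lay above DMSO (2248 ± 90.4), nilotinib by less. RRM2 differed between the drugs by -0.67 ± 0.07 (SE, adjusted p = 6.25e-05) and RRM1 by -0.49 ± 0.08 (adjusted p = 0.00219). TYMS, which makes thymidylate, differed by -0.55 ± 0.07 (adjusted p = 0.000143) and TK1, which salvages thymidine, by -0.56 ± 0.11 (adjusted p = 0.00707). The mean of both TYMS probe sets was not called (-0.25, adjusted p = 0.401), and that of both RRM1 probe sets was -0.24, adjusted p = 0.0215.

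**Figure D2:**
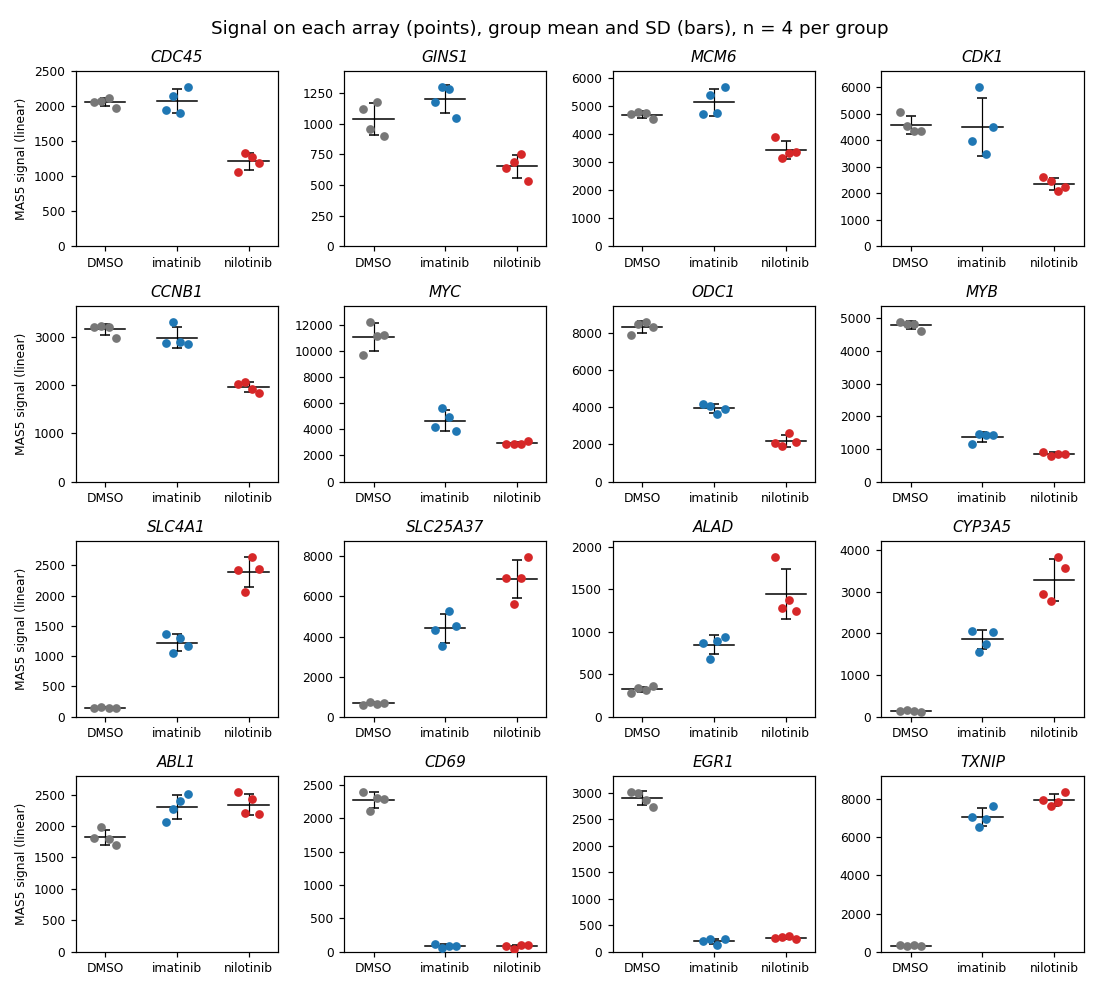
Each panel plots the linear MAS5 signal of a gene (y axis from 0) on every array, with the group mean (line) and SD (bar) of 4 arrays for DMSO, imatinib and nilotinib. CDC45, GINS1, MCM6, CDK1, CCNB1, MYC, ODC1 and MYB are lowest with nilotinib, SLC4A1, SLC25A37, ALAD and CYP3A5 are highest, and the drugs overlap for ABL1 and CD69.

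Part of the mitotic genes were lower with nilotinib as well. Of 36 mitotic kinase and spindle genes, 10 were lower under both scales and none higher, with a median of -0.33. Of 21 centromere and kinetochore genes, 9 were lower and none higher, with a median of -0.38. Of 15 condensin and cohesin genes 4 were lower, with a median of -0.18, and of 25 genes of homologous recombination and mismatch repair 4 were lower, with a median of -0.18. These medians kept their sign under the 3 other scalings. Nearly all measured members of these lists lay at or above the 40th percentile of mean signal. Of all genes there, 4.43% were lower under both scales, and of the brightest decile of probe sets 11.8%. The part of signal level in these counts was not tested.

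CDK1, the kinase that starts mitosis, had signals of 2599, 2477, 2093 and 2255 on the nilotinib arrays and 3970, 6018, 3488 and 4518 on the imatinib arrays. The imatinib arrays spread widely, and the lowest lay above the highest nilotinib array. CDK1 is among the 15 largest lower genes, a set that required no overlap. It differed by -0.90 ± 0.12 (SE, adjusted p = 0.000425). All 3 probe sets of CDK1 were lower under both scales. CCNB1, its cyclin partner, had signals of 2025, 2060, 1909 and 1827 on the nilotinib arrays and 2862, 3308, 2889 and 2852 on the imatinib arrays, also without overlap. CCNB1 differed by -0.60 ± 0.07 (adjusted p = 0.000114), and its DMSO mean was 3151 ± 112, so that the imatinib arrays lay near the solvent level. ASPM, a spindle pole protein, differed by -0.58 ± 0.10 (adjusted p = 0.00215), and BIRC5, the survivin subunit of the chromosomal passenger complex, by -0.40 ± 0.08 (adjusted p = 0.0052).

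TACC3, which stabilises spindle microtubules, had the largest difference of the list, -1.67 ± 0.33 (adjusted p = 0.00684), on signals of 60.3, 49, 237 and 142 on the nilotinib arrays and 272, 379.6, 335 and 499 on the imatinib arrays. These are dim signals that vary between arrays of the same drug, and the difference was -2.26 among the arrays of high actin ratio against -1.09 among those of low ratio. At the centromere, CENPU differed by -0.57 ± 0.07 (adjusted p = 0.000294), and the spindle checkpoint genes BUB1B and MAD2L1 by -0.53 ± 0.12 and -0.49 ± 0.10. TOP2A, the topoisomerase that untangles sister chromosomes, differed by -0.49 ± 0.08 (adjusted p = 0.00221). In DNA repair, BRCA1 differed by -0.56 ± 0.12 (adjusted p = 0.0132) and FANCI, of the Fanconi anaemia pathway, by -0.47 ± 0.07 (adjusted p = 0.000458).

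A CDK1 promoter is shown because the letters TTTGAA, the cell cycle homology region or CHR, are known from promoters of mitotic genes. The window lies at chr10:60778228-60778527, plus strand, on the same build, with capitals marking TTTGAA on either strand.
CDK1: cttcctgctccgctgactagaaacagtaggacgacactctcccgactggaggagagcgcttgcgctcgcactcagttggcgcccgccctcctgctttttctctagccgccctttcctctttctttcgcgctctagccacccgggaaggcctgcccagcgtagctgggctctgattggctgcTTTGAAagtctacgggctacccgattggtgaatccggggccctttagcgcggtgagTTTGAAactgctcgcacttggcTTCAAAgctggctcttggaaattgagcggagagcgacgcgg
It held 3 matches. The CHR letters were found in 15.6% of the 9563 array genes with a promoter. Among mitotic and kinetochore genes they were found in 10 of the 16 that were lower under both scales (62.5%) and in 19 of the 28 not called (67.9%). In the whole table, 55 windows held a CHR match that overlapped another searched motif, and 6 held such an E2F match.

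Among 23 E2F factors and G1 cyclins, 3 were lower under both scales and 1 was higher. CCNA2, the S phase cyclin (-0.53 ± 0.09, adjusted p = 0.00225), CDK2, its kinase (-0.38 ± 0.08, adjusted p = 0.0124), and CCND2, a D-type cyclin (-0.49 ± 0.09, adjusted p = 0.0026), were lower. CCND2 signals were 1197, 982, 1216 and 1188 on the nilotinib arrays and 1442, 1834, 1556 and 1646 on the imatinib arrays, without overlap, and both drugs lay far below DMSO (5800 ± 334). Its call rests on 1 of its 3 probe sets, and the mean of the 3 was of similar size but not called (-0.40, adjusted p = 0.192). For CDK2, too, 1 of 3 probe sets was lower, and their mean was near 0 (-0.03, adjusted p = 0.93). Of 14 CDK inhibitors and antiproliferative genes, none was lower and 2 were higher under both scales. CDKN1C, the inhibitor p57, was among the higher ones at 0.37 ± 0.09 (adjusted p = 0.0209), with overlapping arrays. CDKN1C missed the threshold, at adjusted p 0.0557 to 0.0704, without nilotinib replicate 1 or 2 or imatinib replicate 6 or 7. Median centring ended its call too, and it differed by 0.52 at high and 0.22 at low actin ratio. CDKN1B, the inhibitor p27, was not called at 0.06 ± 0.08 (95% interval -0.10 to 0.23, adjusted p = 0.642). The median of this list was 0.24 as deposited and -0.06 after median centring.

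MYC, the growth regulator that BCR-ABL1 sustains, was lower with nilotinib than with imatinib. Its signals were 2857, 2843, 2864 and 3107 on the nilotinib arrays and 4203, 5634, 4960 and 3864 on the imatinib arrays. The drugs did not overlap, and both lay far below DMSO (11063 ± 1058). MYC differed between the drugs by -0.66 ± 0.10 (SE, adjusted p = 0.000946), with -0.77 among the arrays of high actin ratio and -0.55 among those of low ratio. Of 23 genes of the MYC and ribosome biogenesis list, 5 were lower under both scales and none higher, with a median of -0.20.

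ODC1, which starts polyamine synthesis and is a textbook MYC target, had signals of 2093, 1889, 2633 and 2116 on the nilotinib arrays and 4156, 4097, 3614 and 3924 on the imatinib arrays. No nilotinib array reached an imatinib array, and the DMSO mean was 8330 ± 309. ODC1 differed by -0.86 ± 0.08 (SE, adjusted p = 6e-05). NOP16, a nucleolar protein, differed by -0.76 ± 0.09 (adjusted p = 0.000177) on 1 of its 4 probe sets, whose mean was not called (-0.11, adjusted p = 0.722), and LDHA, lactate dehydrogenase, by -0.57 ± 0.07 (adjusted p = 0.000193). The 34 cytosolic ribosomal protein genes held no call, and their median was -0.02 as deposited and 0.11 after cyclic loess.

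Purine and pyrimidine synthesis was lower in 6 of 20 genes under both scales, with a median of -0.24 and no gene higher. NME1, a nucleoside diphosphate kinase, differed by -0.62 ± 0.07 (adjusted p = 6.44e-05), PAICS, of the purine pathway, by -0.59 ± 0.07 (adjusted p = 0.000143), and UMPS, which makes uridylate, by -0.60 ± 0.12 (adjusted p = 0.00904). PFAS, a further purine enzyme, differed by -0.60 ± 0.15 (adjusted p = 0.0276). PFAS missed the threshold, at adjusted p 0.0528 to 0.0824, without nilotinib replicate 1 or 4 or imatinib replicate 5 or 6. It differed by -0.88 at high and -0.31 at low actin ratio. The mean of 3 probe sets was -0.24, adjusted p = 0.419 for UMPS, which ended its call, and -0.32, adjusted p = 0.0458 for PAICS.

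The spliceosome list held 10 lower genes of 39 under both scales and none higher, with a median of -0.23. As deposited, 16 were lower. All 39 lay at or above the 40th percentile of mean signal, where 4.43% of genes were lower under both scales. SRSF7, a splicing factor that binds exons, had signals of 1895, 1881, 1417 and 1567 on the nilotinib arrays and 3524, 3597, 2698 and 3686 on the imatinib arrays. These did not overlap, which was required of the 15 largest lower genes, SRSF7 among them. The DMSO mean was higher still (5998 ± 84.9). SRSF7 differed by -0.99 ± 0.10 (SE, adjusted p = 6.25e-05), with 2 of its 4 probe sets lower under both scales and a mean over the 4 of -0.47, adjusted p = 0.012. PRPF19, a ubiquitin ligase of the spliceosome, differed by -0.72 ± 0.10 (adjusted p = 0.000712) and SNRNP25, of the minor spliceosome, by -0.62 ± 0.07 (adjusted p = 0.000143).

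Mitochondrial, chaperone and proteasome lists held some lower genes. The mitochondrial ribosome had 6 lower of 36 under both scales (median -0.23), the respiratory chain and ATP synthase 6 of 38 (median -0.22), the heat shock and chaperonin list 4 of 22 (median -0.22) and the proteasome 1 of 26 (median -0.14), and none of these lists had a higher gene. As deposited alone, 9, 12, 8 and 3 genes of these lists were lower. All measured members of these lists lay at or above the 40th percentile of mean signal. Of all genes above it, 4.43% were lower under both scales. In the brightest decile of probe sets the lower share was 11.8% under both scales and 19.7% as deposited. The proteasome count lay near the share over all genes, and the part of signal level in the other counts was not tested. Named members were MRPL34 (-0.54 ± 0.08, adjusted p = 0.000907), MRPL18 (-0.53 ± 0.08, adjusted p = 0.000814), the complex I subunits NDUFB11 (-0.49 ± 0.08, adjusted p = 0.00165) and NDUFB2 (-0.40 ± 0.06, adjusted p = 0.00121), cytochrome c, CYCS (-0.53 ± 0.09, adjusted p = 0.00219), and the mitochondrial co-chaperone HSPE1 (-0.45 ± 0.07, adjusted p = 0.0021). In the unfolded protein response, 3 of 20 genes were lower under both scales and 5 as deposited. MANF, a secreted protein of the endoplasmic reticulum, had signals of 419, 424, 324 and 342 on the nilotinib arrays and 623, 786, 652 and 733 on the imatinib arrays, without overlap, and differed by -0.86 ± 0.12 (SE, adjusted p = 4e-04). CRELD2, which is known to respond with it, differed by -0.81 ± 0.14 (adjusted p = 0.00225). The median of that list, 0.02 as deposited, was -0.06 after quantile normalization and also negative under median centring and cyclic loess.

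Glycolysis was split: 6 of 21 genes were lower under both scales and 2 higher. PGAM1 (-0.57 ± 0.07, adjusted p = 0.000302), LDHA (-0.57 ± 0.07) and ENO1 (-0.56 ± 0.08, adjusted p = 0.000986), enzymes of its last steps, were lower, while SLC2A1, the main glucose carrier of red cells, was higher at 0.35 ± 0.07 (adjusted p = 0.00855), a call that median centring ended. GAPDH and PGK1, which also stand in the list of 16 housekeeping genes, differed by -0.31 ± 0.09 (adjusted p = 0.0372) and -0.32 ± 0.07 (adjusted p = 0.0107). GAPDH missed the threshold, at adjusted p 0.0553 to 0.0892, without nilotinib replicate 1, 2 or 4 or imatinib replicate 5, 6 or 8. After cyclic loess, and with their probe sets averaged, both lost their calls. GAPDH differed by -0.47 at high and -0.16 at low actin ratio, and the mean of its 3 probe sets was -0.20, adjusted p = 0.138. For PGK1 that mean was -0.33, adjusted p = 0.054, and for ENO1, on 3 probe sets, -0.25, adjusted p = 0.113, which was not called. The 33 genes of ATF4 and the amino acid response had 3 lower genes under both scales, 4 lower and 1 higher as deposited, and their median was -0.12, beside medians of -1.53 for imatinib and -1.55 for nilotinib against DMSO. IARS1, the isoleucyl-tRNA synthetase, had the largest difference of the members called under both scales (-0.46 ± 0.07, adjusted p = 0.00119).

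Red cell genes were higher with nilotinib in part, and of the 45 lists the haemoglobin and membrane list held the most higher calls. Of 24 haemoglobin and erythroid membrane genes, 6 were higher and 1 lower under both scales, with a median of 0.30 as deposited, 0.23 after quantile normalization and 0.00 after median centring. Of 22 genes of heme synthesis and iron handling, 5 were higher and none lower, with medians of 0.10, 0.06 and -0.20 on the same 3 scales. Of 27 late red cell genes, 4 were higher and 1 lower, with medians of 0.32, 0.19 and 0.02. Over all genes 1.58% were higher and 3.01% lower, with medians of 0.13, 0.02 and -0.16. The heme list median thus lay below that of all genes as deposited and after median centring, and above it after quantile normalization. Some genes stand in more than 1 of these lists.

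SLC4A1, the anion exchanger band 3 of the red cell membrane, had signals of 2428, 2051, 2636 and 2439 on the nilotinib arrays and 1371, 1052, 1300 and 1171 on the imatinib arrays. Every nilotinib array exceeded every imatinib array, and the DMSO mean was 150.2 ± 11.2. SLC4A1 differed by 0.96 ± 0.10 (SE, adjusted p = 7.6e-05), with 0.89 among the arrays of high actin ratio and 1.03 among those of low ratio. SLC25A37, mitoferrin, which brings iron into mitochondria, had signals of 6930, 5631, 6943 and 7968 on the nilotinib arrays and 4323, 3509, 5258 and 4523 on the imatinib arrays without overlap. SLC25A37 differed by 0.64 ± 0.11 (adjusted p = 0.0027), and its call was lost after median centring. ALAD, the second enzyme of heme synthesis, had signals of 1880, 1284, 1378 and 1248 on the nilotinib arrays and 868, 684, 894 and 936 on the imatinib arrays. These did not overlap either, but replicate 1 of nilotinib stood high, and ALAD differed by 0.75 ± 0.13 (adjusted p = 0.00274) over all arrays, 1.00 at high and 0.51 at low actin ratio.

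KEL, the Kell blood group protein, differed by 0.52 ± 0.12 (adjusted p = 0.0169) with overlapping arrays: its signals were 3186, 2552, 3739 and 3894 on the nilotinib arrays and 2084, 2105, 2270 and 2784 on the imatinib arrays. KEL had an adjusted p of 0.0568 without nilotinib replicate 4 and 0.0575 without imatinib replicate 6. CPOX, a later enzyme of heme synthesis, differed by 0.39 ± 0.08 (adjusted p = 0.00825), ADD2, an adducin of the membrane skeleton, by 0.42 ± 0.09 (adjusted p = 0.00974), and BNIP3L, which clears mitochondria from maturing red cells, by 0.46 ± 0.09 (adjusted p = 0.00403). Median centring ended the calls of KEL, CPOX, ADD2 and BNIP3L, and the mean of 3 ADD2 probe sets was not called (0.39, adjusted p = 0.0889). ALAS2, the erythroid enzyme that starts heme synthesis, had signals of 6537, 6783, 7751 and 7853 on the nilotinib arrays and 5082, 4218, 5823 and 6074 on the imatinib arrays. The drugs did not overlap and both lay far above DMSO (232 ± 53.8). Its difference of 0.46 ± 0.13 (adjusted p = 0.0516) was not called as deposited, although it passed after quantile normalization (0.57, adjusted p = 0.0234). TFRC, the transferrin receptor, was not called at 0.10 ± 0.07 (95% interval -0.06 to 0.25, adjusted p = 0.419). HBQ1, theta globin, was the lower gene of the list at -0.62 ± 0.15 (adjusted p = 0.0207). HBQ1 missed the threshold, at adjusted p 0.0545 to 0.0637, without nilotinib replicate 2 or 4 or imatinib replicate 6 or 8. Cyclic loess ended its call as well.

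The KEL promoter is shown for its GATA letters, which the red cell factor GATA1 is known to bind. It lies at chr7:142962314-142962613, minus strand, with capitals marking TGATAA or AGATAA on either strand.
KEL: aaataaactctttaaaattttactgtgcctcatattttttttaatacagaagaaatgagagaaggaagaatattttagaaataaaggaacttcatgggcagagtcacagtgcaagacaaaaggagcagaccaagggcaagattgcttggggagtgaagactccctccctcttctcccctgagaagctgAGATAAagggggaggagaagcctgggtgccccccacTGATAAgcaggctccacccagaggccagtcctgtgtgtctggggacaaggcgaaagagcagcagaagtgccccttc
It held 2 matches. GATA letters were found in 15.1% of the 9563 array genes with a promoter, in 3 of the 10 red cell and heme genes higher under both scales (30%) and in 12 of the 41 that were not called (29.3%).

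Among 23 erythroid and stem cell regulators, 2 were higher and 2 lower under both scales. Over all genes, 1.58% were higher and 3.01% lower. MYB, a factor of blood progenitors that is known to decline as red cells mature, had signals of 912, 777, 838 and 844 on the nilotinib arrays and 1147, 1448, 1439 and 1423 on the imatinib arrays. The drugs did not overlap and both lay far below DMSO (4793 ± 129). MYB differed by -0.68 ± 0.08 (SE, adjusted p = 0.000143), on 1 of its 2 probe sets. The other lay at 0.26, and the mean of both was not called (-0.21, adjusted p = 0.23). HHEX, a homeobox factor of progenitors, was lower too (-0.57 ± 0.08, adjusted p = 0.000425). TAL1, a factor required for red cell fate, was higher, with signals of 2726, 2816, 2968 and 2884 on the nilotinib arrays and 2014, 2043, 2144 and 2248 on the imatinib arrays and a difference of 0.43 ± 0.07 (adjusted p = 0.00149). Of its 3 probe sets 1 was higher under both scales, their mean was not called (0.24, adjusted p = 0.403), and median centring ended the call. CD24, a surface protein of immature cells, was lower by -0.59 ± 0.07 (adjusted p = 0.000177), with 4 of its 6 probe sets lower under both scales. The lysosome and autophagy list had 2 of 37 genes higher and none lower; CTSB, cathepsin B, was higher by 0.34 ± 0.06 (adjusted p = 0.00515) in all 4 of its probe sets. FOXO3, a factor that AKT keeps out of the nucleus, was the single called member of 22 FOXO targets, at 0.47 ± 0.10 (adjusted p = 0.00983). The calls of CTSB and FOXO3 were lost after median centring. The counts of the regulator, lysosome and FOXO lists are of few genes and are not read as results about the lists.

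Genes read as early outputs of BCR-ABL1, like most genes of the array, were mostly not called between the drugs. Of 24 ERK feedback and immediate early genes, MYC alone was called, and lower. That is near the share over all genes, of which 3.01% were lower and 1.58% higher under both scales. Of these 24 genes, 18 lay at or above the 40th percentile of mean signal. EGR1, an immediate early factor, had signals of 262, 275, 296 and 246 on the nilotinib arrays and 196, 236, 136 and 238 on the imatinib arrays against a DMSO mean of 2904 ± 135. Every nilotinib array lay above every imatinib array, but both drugs left it far below DMSO. Its difference was 0.42 ± 0.14 (95% interval 0.12 to 0.72, adjusted p = 0.0833), while the mean of its 2 probe sets passed as higher (0.58, adjusted p = 0.0079). CD69, an early activation antigen, differed by -0.07 ± 0.21 (95% interval -0.52 to 0.38), with means of 87 ± 22.6 with imatinib, 82.9 ± 24.6 with nilotinib and 2272 ± 116 with DMSO (SD, n = 4). Of 14 STAT5 targets, SOCS2, a STAT5 feedback inhibitor (-0.42 ± 0.07, adjusted p = 0.00221), and CCND2 (-0.49 ± 0.09) were lower under both scales and none was higher. SOCS2 signals were 2057, 1927, 2059 and 1796 on the nilotinib arrays and 2784, 2821, 2422 and 2477 on the imatinib arrays, without overlap, against 10706 ± 510.5 with DMSO, and the mean of its 2 probe sets was -0.28, adjusted p = 0.0135. PIM1, a survival kinase, differed by 0.32 ± 0.14 (95% interval 0.03 to 0.61, adjusted p = 0.17).

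Of 25 survival and death genes, 1 was lower under both scales, BIRC5 (-0.40 ± 0.08), which stands in the mitotic list too. That is near the share over all genes, of which 3.01% were lower under both scales. As deposited alone, 1 was higher, CASP10, a caspase (0.60 ± 0.16, adjusted p = 0.0363). The mean of its probe sets was not called (0.61, adjusted p = 0.107). CASP10 missed the threshold, at adjusted p 0.051 to 0.0941, without nilotinib replicate 1, 2, 3 or 4 or imatinib replicate 5, 6 or 7. BCL2L1, the survival factor BCL-XL, differed by -0.28 ± 0.12 (95% interval -0.54 to -0.02) and BCL2L11, the death factor BIM, by 0.48 ± 0.17 (95% interval 0.12 to 0.84), neither called, and their probe sets averaged -0.02 and 0.18. TXNIP, a thioredoxin inhibitor that follows glucose supply, differed by 0.17 ± 0.08 (adjusted p = 0.196) as deposited and passed after quantile normalization (0.29, adjusted p = 0.0335) or as the mean of its 3 probe sets (0.34, adjusted p = 0.0424).

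Of 13 transcripts of the drugs' own targets, none was called under both scales, and only 6 lay at or above the 40th percentile of mean signal. Over all genes, 1.58% were higher and 3.01% lower under both scales, so that no call among 13 is near those shares. ABL1 signals were 2540, 2213, 2427 and 2191 on the nilotinib arrays and 2064, 2274, 2394 and 2510 on the imatinib arrays. The 2 sets overlapped fully, and the difference was 0.02 ± 0.08 (95% interval -0.14 to 0.18, adjusted p = 0.891). BCR differed by 0.06 ± 0.13 (95% interval -0.23 to 0.34), KIT, a further receptor that both drugs inhibit, by 0.23 ± 0.15 (95% interval -0.09 to 0.54) and NQO2, an oxidoreductase that binds both, by -0.12 ± 0.09 (95% interval -0.32 to 0.08). As deposited alone, 1 of the 13 was called, CSF1R, a receptor kinase (1.32 ± 0.38, adjusted p = 0.0492), with 0.79 at high and 1.84 at low actin ratio. It lay below the 40th percentile, with mean signals of 45.3 with imatinib and 132.5 with nilotinib. In that dim range the median of all probe sets was higher with nilotinib. CSF1R missed the threshold, at adjusted p 0.0519 to 0.123, without nilotinib replicate 2, 3 or 4 or imatinib replicate 5, 6, 7 or 8. CSF1R and CASP10 are named here after their values were seen. An interval that holds 0 does not show that the levels were alike. Among 34 signalling proteins around BCR-ABL1, 2 were higher and 1 lower under both scales, beside the same shares over all genes. LYN, a SRC family kinase, was lower at -0.35 ± 0.08 (adjusted p = 0.0196). LYN missed the threshold, at adjusted p 0.0502 to 0.0658, without nilotinib replicate 4 or imatinib replicate 5 or 6. It was not called after cyclic loess. INPP5D, the phosphatase SHIP1, was higher at 0.84 ± 0.18 (adjusted p = 0.0125) and lost its call after median centring, after cyclic loess and as the mean of its 2 probe sets (0.53, adjusted p = 0.146).

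CYP3A5, an enzyme that oxidises many drugs, was higher with nilotinib in all 3 of its probe sets. Its signals were 2934, 2763, 3830 and 3556 on the nilotinib arrays and 2053, 1560, 1752 and 2040 on the imatinib arrays, without overlap, against 139 ± 15 with DMSO. CYP3A5 differed by 0.81 ± 0.12 (SE, adjusted p = 0.000737), with 0.67 at high and 0.96 at low actin ratio. It was the single call among 18 genes of the cytochrome P450 and aryl hydrocarbon list. Over all genes, 1.58% were higher and 3.01% lower under both scales. CYP1A1, the classic aryl hydrocarbon target, was not called at 0.27 ± 0.37 (95% interval -0.52 to 1.05). Of 11 drug transporters 2 were higher and none lower, beside the same shares over all genes. ABCG2, an efflux pump that also exports porphyrins, differed by 0.46 ± 0.11 (adjusted p = 0.0205). ABCG2 had an adjusted p of 0.0574 without imatinib replicate 5 and 0.0534 without imatinib replicate 8. Nor was ABCG2 called after median centring. ABCB1, the pump P-glycoprotein, had a difference of 0.39 ± 0.42 with a wide interval (-0.49 to 1.28, 95%) and was not called.

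**Figure D3:**
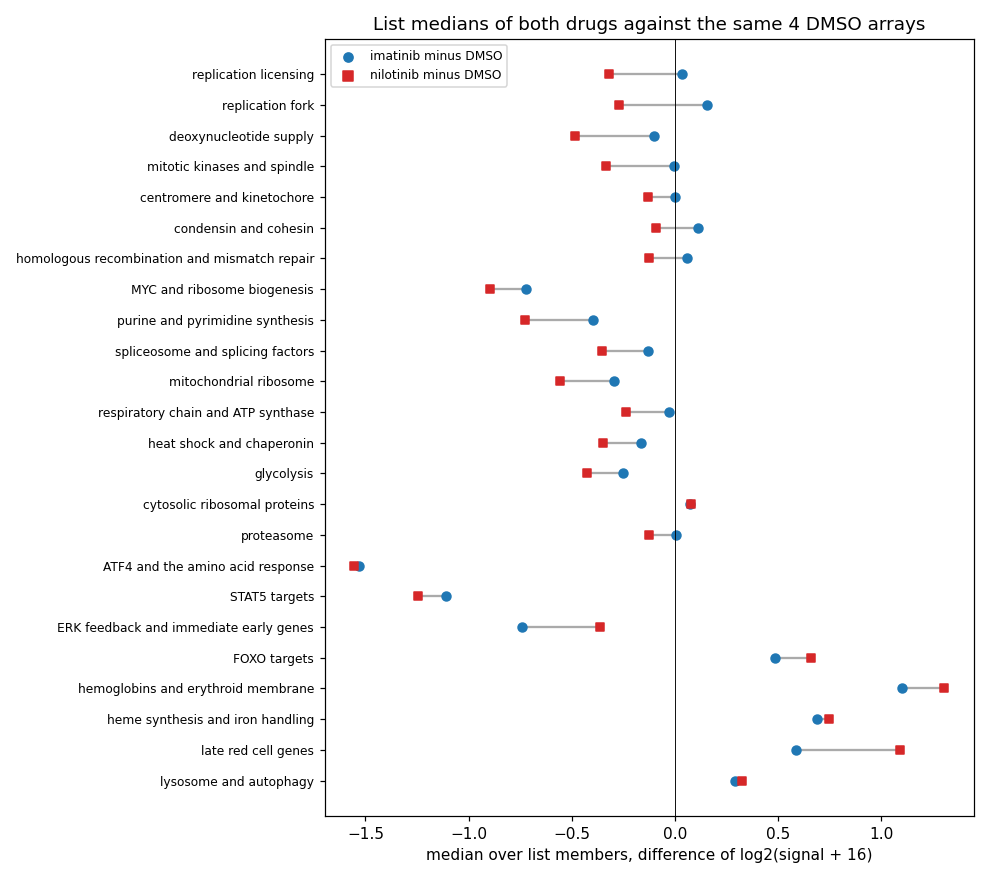
Median differences of log2(signal + 16) over the members of 24 lists (x axis) are plotted for imatinib minus DMSO (blue circles) and nilotinib minus DMSO (red squares), both against the same 4 DMSO arrays. For the licensing and fork lists the imatinib medians lie near or right of 0 (0.03 for licensing) and the nilotinib medians left of it (-0.32), while for the ATF4 list both lie near -1.53.

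Set beside the solvent, the lists fell into different patterns. The 2 columns of values are on the deposited scale, share the DMSO arrays and are given side by side without a test. The median of licensing genes was 0.03 for imatinib and -0.32 for nilotinib, that of fork genes 0.15 and -0.27, and that of mitotic genes -0.01 and -0.34. Some single genes showed the same split: CDC45 stood at 0.01 with imatinib and -0.76 with nilotinib, CDK1 at -0.05 and -0.95, and CCNB1 at -0.08 and -0.68. Other genes lower with nilotinib than with imatinib stood above DMSO with imatinib and near or above it with nilotinib. FANCI stood at 0.47 and -0.01, TK1 at 0.48 and -0.08, and RRM2 at 0.97 and 0.31. In the MYC and ribosome biogenesis list both medians were below 0, at -0.72 and -0.90, and MYC itself stood at -1.25 and -1.91. MYB stood at -1.81 and -2.49. On the other side of 0, the haemoglobin and membrane list stood at 1.1 with imatinib and 1.30 with nilotinib, SLC4A1 at 2.89 and 3.85, and CYP3A5 at 3.58 and 4.40. EGR1 stood at -3.78 and -3.36, and SOCS2 at -2.02 and -2.44.

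**Figure D4:**
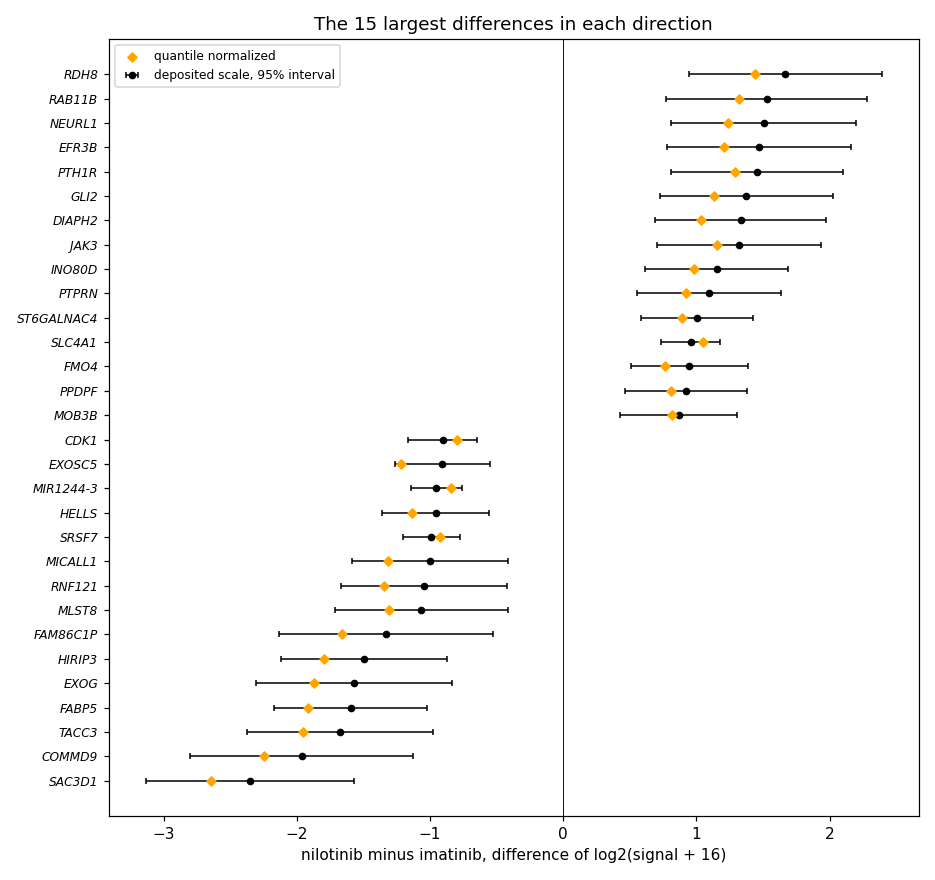
The 15 genes with the largest difference in each direction are plotted by their nilotinib minus imatinib difference of log2(signal + 16) (x axis) with its 95% interval (black) and by the value after quantile normalization (orange diamonds). With quantile normalization, SAC3D1 went from -2.35 to -2.64 and RDH8 from 1.67 to 1.44.

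Most of the largest differences were in dim genes. The 15 largest in each direction were picked among genes called under both scales whose drug arrays did not overlap, so this was set beforehand. Among genes at or above the 40th percentile of mean signal, 355 of 8021 were lower under both scales (4.43%) and 178 higher (2.22%), and all nilotinib arrays lay below all imatinib arrays for 685 (8.54%) and above them for 762 (9.5%). SAC3D1, a centrosomal protein, had signals of 76.4, 20.9, 11.9 and 112 on the nilotinib arrays and 246, 369, 227 and 322 on the imatinib arrays, against 462 ± 44.8 with DMSO. SAC3D1 differed by -2.35 ± 0.37 (SE, adjusted p = 0.00144). FABP5, a fatty acid carrier, had signals of 139, 31.9, 60.7 and 61.3 on the nilotinib arrays and 232, 261, 247 and 187 on the imatinib arrays and differed by -1.60 ± 0.27 (adjusted p = 0.00245). COMMD9, of the endosomal COMMD complex, had signals of 24.7, 226, 89.5 and 117 on the nilotinib arrays and 417, 459, 289 and 496 on the imatinib arrays and differed by -1.96 ± 0.40 (adjusted p = 0.00776). The nilotinib values of these genes spread several-fold among arrays, and none reached the imatinib arrays, as the rule that picked them required. HIRIP3, a histone chaperone partner (-1.50 ± 0.30, adjusted p = 0.00685), HELLS, a chromatin remodeller (-0.96 ± 0.19, adjusted p = 0.00679), and EXOSC5, an RNA exosome subunit (-0.91 ± 0.17, adjusted p = 0.00466), were lower as well. CDK1, TACC3 and SRSF7 complete the lower genes already described, and EXOG, MICALL1, MLST8, RNF121 and FAM86C1P followed with losses when an array was left out. EXOG, a mitochondrial nuclease, differed by -1.57 ± 0.35, and 1 of its 3 probe sets was lower under both scales, with a mean of -0.48, adjusted p = 0.295. EXOG had an adjusted p of 0.0543 without imatinib replicate 6. MICALL1 differed by -1.002 ± 0.28. MICALL1 missed the threshold, at adjusted p 0.0535 to 0.124, without nilotinib replicate 1, 2 or 4 or imatinib replicate 5, 6 or 8. The mean of its 2 probe sets was -0.35, adjusted p = 0.439. MLST8, an mTOR subunit, differed by -1.07 ± 0.31. MLST8 missed the threshold, at adjusted p 0.0565 to 0.104, without nilotinib replicate 1 or 4 or imatinib replicate 5, 6, 7 or 8. It differed by -0.65 at high and -1.48 at low actin ratio. RNF121 differed by -1.05 ± 0.30. RNF121 missed the threshold, at adjusted p 0.0607 to 0.125, without nilotinib replicate 1, 2 or 4 or imatinib replicate 5, 6, 7 or 8. Within those classes it differed by -1.40 and -0.70. FAM86C1P, a pseudogene whose signal can hold that of its relatives, differed by -1.33 ± 0.38. FAM86C1P missed the threshold, at adjusted p 0.0698 to 0.123, without nilotinib replicate 2 or 4 or imatinib replicate 5, 6, 7 or 8. The probe set assigned to MIR1244-3 was lower by -0.95 ± 0.09 (adjusted p = 5.07e-05) on signals of 3584, 3498, 4608 and 3539 on the nilotinib arrays and 7604, 8444, 6785 and 6660 on the imatinib arrays. Its name ends in x_at, which marks probes that can bind related transcripts, so it is uncertain as a measure of that microRNA.

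On the higher side, RDH8, a retinol dehydrogenase, had signals of 222, 306, 130.1 and 278 on the nilotinib arrays and 70.1, 73.7, 30.8 and 73.3 on the imatinib arrays, against 66.2 ± 15.5 with DMSO, and differed by 1.67 ± 0.34 (SE, adjusted p = 0.00855). Its arrays did not overlap, as the rule that picked it required. NEURL1 (1.504 ± 0.33), EFR3B (1.47 ± 0.33), PTH1R, a parathyroid hormone receptor (1.46 ± 0.31), GLI2, a hedgehog factor (1.37 ± 0.31), DIAPH2, a formin (1.33 ± 0.30), JAK3, a cytokine receptor kinase (1.32 ± 0.29), INO80D (1.15 ± 0.26), FMO4, a flavin monooxygenase (0.95 ± 0.21), and ST6GALNAC4, a sialyltransferase (1.01 ± 0.20), were higher too. Their mean signals with imatinib lay between 56.4 and 209, in the range where the median of all probe sets was higher with nilotinib. Their groups did not overlap, by the same rule. Cyclic loess ended the calls of NEURL1, EFR3B, GLI2, DIAPH2, INO80D and FMO4 and kept those of RDH8, PTH1R, JAK3 and ST6GALNAC4. JAK3 was higher under both scales in 1 of 3 probe sets and EFR3B in 1 of 2, and the means over probe sets were not called (0.48, adjusted p = 0.222 and 0.57, adjusted p = 0.208). At high and low actin ratio PTH1R differed by 2.01 and 0.91, and ST6GALNAC4 by 1.39 and 0.62. RAB11B, PTPRN, PPDPF and MOB3B were higher with losses when an array was left out. RAB11B, a small GTPase, differed by 1.53 ± 0.36. RAB11B had an adjusted p of 0.0614 without nilotinib replicate 4 and 0.0552 without imatinib replicate 6. It differed by 0.99 at high and 2.06 at low actin ratio, and the mean of its 2 probe sets was 0.76, adjusted p = 0.157. PTPRN differed by 1.09 ± 0.26. PTPRN had an adjusted p of 0.0518 without nilotinib replicate 3 and 0.0605 without imatinib replicate 6. PPDPF differed by 0.92 ± 0.22. PPDPF had an adjusted p of 0.0539 without nilotinib replicate 4. MOB3B differed by 0.87 ± 0.21. MOB3B missed the threshold, at adjusted p 0.0546 to 0.0579, without nilotinib replicate 3 or imatinib replicate 6 or 7. These 4 were not called after cyclic loess. SLC4A1, at 0.96, was the one gene of these 15 that also belonged to a red cell list.

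Markers of the labelled cells and of other blood and stromal cells were read on the same arrays. The signals of 14 K562 markers summed to 52619 to 58693 on the DMSO arrays, 86176 to 95634 on the imatinib arrays and 96357 to 105930 on the nilotinib arrays, and TAL1 was higher and CD24 lower among them. The 19 megakaryocyte and platelet markers summed to 2701 to 2853, 3034 to 3418 and 3646 to 4545 in the same order, with no call and a median difference between the drugs of 0.48. The 17 lymphocyte markers summed to 1195 to 1332, 1413 to 1614 and 1954 to 2747, with none called under both scales, 1 higher as deposited and a median of 0.57. The 18 granulocyte and monocyte markers summed to 4073 to 4612, 3541 to 4182 and 3862 to 5226, with a median of 0.49, with 3 higher as deposited and 1 under both scales, and ITGAM, an integrin, was that gene (0.48 ± 0.11, adjusted p = 0.016), though not after median centring or as the mean of its 2 probe sets (0.47, adjusted p = 0.0536). The 17 fibroblast and endothelial markers summed to 15175 to 17474, 8793 to 9916 and 6958 to 8789, with a median of 0.32, and VIM, vimentin, was lower (-0.37 ± 0.08, adjusted p = 0.0102), though not after cyclic loess. No marker was listed at 0 on any array. After quantile normalization the medians of these 4 other lists were 0.19, 0.30, 0.20 and 0.09, and 11 of the 19, 8 of the 17, 5 of the 18 and 9 of the 17 markers lay at or above the 40th percentile of mean signal. Their part in the other results was not tested. VIM, the brightest of the stromal markers, is known from blood cells as well.

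Several further lists held few calls. Of 29 interferon response genes 1 was higher and 1 lower under both scales and of 24 NRF2 and glutathione genes 1 and 1. Of 8 histone genes, 2 were higher and none lower under both scales, and 2 and 3 as deposited. Hypoxia genes gave 1 lower of 17, BHLHE40, a basic helix-loop-helix repressor (-0.44 ± 0.07, adjusted p = 0.00177), and cholesterol synthesis 1 lower of 18, FDPS, farnesyl diphosphate synthase (-0.36 ± 0.07, adjusted p = 0.00827). None of 16 p53 targets was called under both scales, and 1 was higher as deposited. Over all genes, the shares were 1.58% higher and 3.01% lower.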

How the data were processed

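The authors deposited a table of MAS5 signals, linear intensity values per probe set of Affymetrix U133A 2.0 arrays for 12 K562 samples, and MAS5 is named in the submitters' processing notes. The trimmed mean was 495.4 to 496.5 on every array, so the deposited intensity values had been scaled; background and scaling settings are not given in the sources used here. Of 22277 probe sets, 62 Affymetrix controls were left out of the tests. Gene names came from GEO's platform annotation: 19064 probe sets named 1 gene, 1043 several and 2108 none, and 19052 matched the RefSeq gene table of GRCh38.p14.

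Signals were taken as log2(signal + 16). limma 3.58.1 (R 4.3.3) fitted 1 mean per group over all 12 arrays (9 residual df) with a variance trend, without covariates. The precision is limited by the number of arrays: the median standard error was 0.27 over all probe sets and 0.15 above the 40th percentile of mean signal. Samples were grouped by their titles, and no 2 arrays held identical values. Genes were named by rule: the 15 genes with the largest difference in each direction (at or above that percentile, called under both scales, drugs not overlapping), up to 4 called members of each list by size, and 26 genes in any case, of which HBG2 had no probe set of its own. The rule gave 148 genes, of which the text prints those its results turn on; CSF1R and CASP10 were added after their values were seen. The 45 lists and the members were chosen with earlier results of these data known, so list counts are descriptions and support nothing independently. A simulation of the design with known changes was run; among unchanged probe sets 0.0273% were called. Alternatives were other pseudocounts, 3 other scalings, filters, variance models, subsets of arrays, leaving out each drug array, and averaging all probe sets of a gene. Figures used matplotlib 3.10.9 under Python 3.11.15.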

Additional observations from a re-analysis of the deposited data

Results flagged for a closer look

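Among the 4 arrays of a group, some signals stood apart from the other 3 by more than Dixon's 95% critical value for 4. Chance flags about 1 group in 20, and 16 groups over the 118 genes named here, with 3 groups each, were past it. BUB1B read 772 on imatinib replicate 7 against 900.5 to 925, CCNB1 read 3308 on imatinib replicate 6 against 2852 to 2889 and CCNB1 read 2983 on DMSO replicate 12 against 3194 to 3218. CCND2 read 982 on nilotinib replicate 2 against 1188 to 1216, EXOG read 109.7 on nilotinib replicate 2 against 26.4 to 30.3 and EXOSC5 read 99.8 on nilotinib replicate 4 against 142 to 148. INPP5D read 405 on nilotinib replicate 3 against 311 to 323, LDHA read 7746 on imatinib replicate 6 against 6680 to 6798 and MICALL1 read 44.5 on nilotinib replicate 2 against 59.9 to 61.3. MIR1244-3 read 4608 on nilotinib replicate 3 against 3498 to 3584, MYB read 1147 on imatinib replicate 5 against 1423 to 1448 and MYC read 3107 on nilotinib replicate 4 against 2843 to 2864. PPDPF read 139 on imatinib replicate 5 against 249 to 266, RDH8 read 30.8 on imatinib replicate 7 against 70.1 to 73.7 and SLC2A1 read 1083 on DMSO replicate 10 against 1020 to 1028. SRSF7 read 2698 on imatinib replicate 7 against 3524 to 3686. MYC, MYB, CCNB1, CCND2, LDHA and SRSF7 kept no overlap between the drugs with these arrays included.

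Control probe sets outside the comparisons were higher on every drug array than on any DMSO array in 3 cases. The 28S ribosomal RNA control averaged 24015 ± 2137 (SD, n = 4) with nilotinib, 20453 ± 1241 with imatinib and 5431 ± 135 with DMSO. The 18S control averaged 9035 ± 972, 5950 ± 934 and 3293 ± 329 in the same order, and the median of 27 bacterial transcript controls, which should find no partner in human RNA, 18.2 ± 5.35, 12.2 ± 4.54 and 7.06 ± 1.31. Between the drugs, the two-sided exact permutation p was 0.0571 for 28S, 0.0286 for 18S and 0.171 for the bacterial controls, and 0.137, 0.114 and 0.342 after adjustment over 12 measures. Their part in the gene results was not tested.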

How the results depend on the processing

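No paired analysis was run, because the sample titles name no pairs. They number the arrays 1 to 4 for nilotinib, 5 to 8 for imatinib and 9 to 12 for DMSO. As reported, the counts of probe sets higher with nilotinib than with imatinib and lower were 608 and 742, and 283 and 542 under both the deposited and the quantile normalized scale. Median centring gave 149 higher, 3402 lower and 56 higher under both scales, since it moves the median difference of all probe sets to -0.14. Cyclic loess gave 376 higher. A fit of only the 8 drug arrays gave 328 higher, and 166 higher and 289 lower under both scales. With the actin ratio class as a covariate, the 8 drug arrays gave 491 higher and 687 lower, and 249 and 429 under both scales. Array weights gave 338 higher and 186 higher under both. Without a variance trend the 4 counts were 318, 228, 54 and 134, on only the arrays of high actin ratio 188, 326, 91 and 235, and on only those of low ratio 108, 282, 89 and 251. Leaving out each drug array in turn gave 216 to 641 higher, 456 to 732 lower, 124 to 288 higher under both scales and 313 to 556 lower under both scales, the lowest each time without imatinib replicate 6. Other counts stayed within 1.5 times. Of the called named genes, no direction turned except AQP3 (0.0803 as the mean of its probe sets), E2F4 (-0.129 likewise) and BTG1 (-0.012 after median centring). Calls lost, of the named genes called under both scales, were 25 after median centring, 23 after cyclic loess, 26 with a gene's probe sets averaged, 56 without a variance trend, 33 without imatinib replicate 6, 69 on only the arrays of high actin ratio and 72 on only those of low ratio, besides the genes whose direction turned. The cause was not tested. Dim signals limit what could be seen: the median standard error was 0.27 over all probe sets against 0.15 above the 40th percentile.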
